A study of Mus musculus with 12 samples.

Results

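The angiopoietin and Tie receptor axis was followed here through 8 genes in lung lymphatic endothelial cells (LECs). The genes were the ligands Angpt1, Angpt2 and Angpt4, the receptors Tek (Tie2) and Tie1, the phosphatase Ptprb (VE-PTP), the matrix protein Svep1 (polydom) and the transcription factor Foxo1. They were chosen by symbol, each matching 1 Ensembl gene identifier, out of 52636 identifiers in the count tables. A filter on low counts left 21440 genes for testing, with 7 of the 8 genes among them. Angpt4 did not pass the filter.

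Angiopoietins are secreted ligands of the receptor tyrosine kinase Tie2, which is found mainly on endothelial cells. Angpt1 activates Tie2, and the active receptor signals through PI3K and AKT, which keeps the transcription factor FOXO1 out of the nucleus. Angpt2 can block or activate Tie2 depending on context, and VE-PTP removes phosphate from Tie2. Tie1 binds no angiopoietin on its own and acts through its partner Tie2. Lymphatic vessels need this axis, and mice that lack Angpt2 or Svep1 form faulty lymphatics.

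RNA was sequenced from LECs of Prox1-EGFP mice, a reporter line in which the promoter of Prox1, the master transcription factor of lymphatic identity, drives a green fluorescent protein. All 12 libraries carried this reporter. Cells were sorted from digested lung as live, positive for GFP and CD31, and negative for EpCAM and for a cocktail of blood lineage markers. Mice breathed cigarette smoke (CS) in a whole-body chamber or room air (RA) from 6 weeks of age. Acute exposure lasted 8 weeks, with 2 CS and 2 RA libraries, each a female (F) and a male (M) pool of cells from 2 to 5 mice. Chronic exposure lasted at least 24 weeks, with 5 CS libraries (F, M1 to M4) and 3 RA libraries (F, M1, M2), each from 1 mouse. Exposure time, age at harvest and pooling therefore cannot be told apart between the acute and chronic groups. These times are those of the study's methods. The sample labels instead give 8 weeks as the age of the acute mice and call the chronic mice aged, which conflicts with 8 weeks of exposure from 6 weeks of age, and the methods were followed here.

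Total counts ran from 45237229 to 56998590 in the acute libraries and from 18821438 to 47494020 in the chronic ones. The lymphatic label was checked with 7 markers, all of which had counts in every library. Their summed level, in counts per 1000000 counts of the library (CPM), was 13513 to 15243 in acute RA, 5904 to 9073 in acute CS, 18528 to 21257 in chronic RA and 13569 to 19947 in chronic CS. Mmrn1, at 2562 to 11247 CPM, made up much of these sums, while Ccl21a measured at most 1.06 CPM. The acute CS libraries held the lowest lymphatic marker sums. There 2 of the 7 markers, Prox1 and Flt4 (VEGFR3), were called lower than in acute RA (edgeR adjusted p = 0.00797 and 0.0204). Of the 7, 1 had a positive log2 fold change, Lyve1, a hyaluronan receptor, at 0.67 (568 to 986 CPM against 443 to 536 CPM, adjusted p = 0.307). In the same 2 libraries all 12 blood endothelial, 12 mesenchymal and 8 leukocyte markers had a positive log2 fold change, and 6, 7 and 7 of them passed an edgeR adjusted p under 0.05, where 2.75% of all genes were called higher. In the chronic comparison edgeR called none of these markers. There the mesenchymal markers had a median log2 fold change of 1.59 (11 of 12 positive) and 8 epithelial markers one of 2.63 (8 of 8 positive), with epithelial sums of 1149 to 4933 CPM in chronic CS and 242 to 493 CPM in chronic RA. In sorted bulk samples, fewer cells of a type and less RNA per cell cannot be told apart.

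Levels of different genes were compared per exon length, as CPM divided by the kilobases of exon (FPKM). In acute RA cells Tie1 was the highest gene of the axis at 256 ± 18.8 FPKM (SD, n = 2), rank 115 of 21404 genes with a length. Tek followed at 80.5 ± 1.69 FPKM and Angpt2 at 54.9 ± 13.9 FPKM. Foxo1 at 20.1 ± 1.14 FPKM and Ptprb at 17.8 ± 2.22 FPKM overlapped between libraries. Angpt1 lay far lower at 0.882 ± 0.153 FPKM, Svep1 lower still at 0.0272 ± 0.0252 FPKM, and Angpt4 had no count. Both receptors and Angpt2 thus lay above the level of 95% of genes in lung LECs, while Angpt1 lay at percentile 38.9 and Svep1 at percentile 6.92.

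The order was much the same in chronic RA cells, where Tie1 stood at 293 ± 22.6 FPKM (SD, n = 3). Tek at 79.9 ± 11.4 FPKM and Angpt2 at 76.7 ± 16.9 FPKM overlapped there, as did Foxo1 at 22.2 ± 1.01 and Ptprb at 19.3 ± 2.95 FPKM. In chronic CS cells the same pairs overlapped, with Tek at 82.5 ± 7.35, Angpt2 at 65.1 ± 10.7, and Ptprb at 26.3 ± 4.54 FPKM (SD, n = 5) beside Foxo1 at 20.9 to 26.9 FPKM. Acute CS was the group in which Ptprb, at 66.3 ± 28.9 FPKM, came to the place next to Tek, at 168 ± 55.3 FPKM (SD, n = 2), although its range overlapped that of Angpt2 at 38.2 to 55.2 FPKM.

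**Figure D1:**
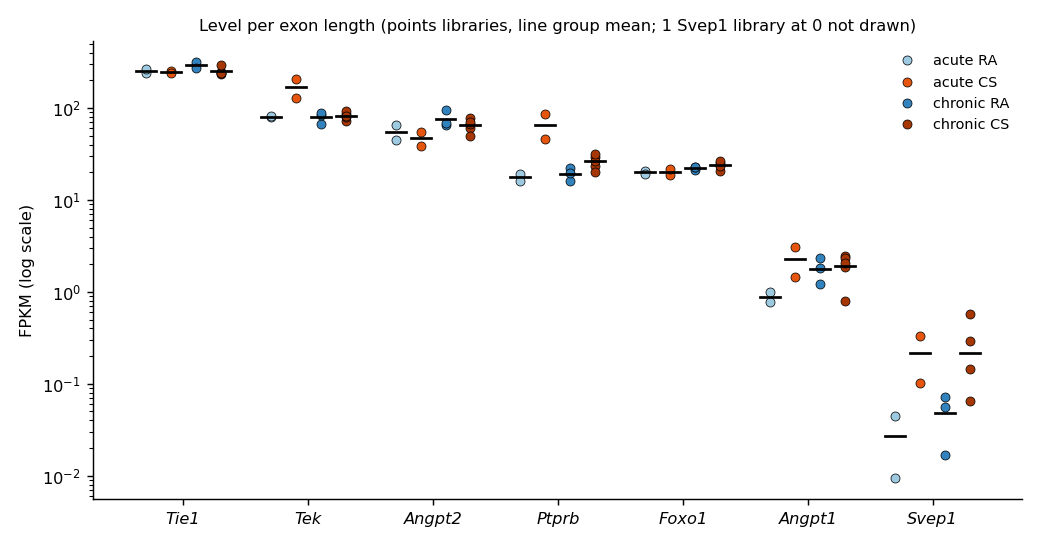
FPKM on a log axis for 7 genes of the axis, grouped by gene and coloured by group, with 1 point per library and a line at the group mean. Tie1 is highest in every group, Tek and Ptprb stand higher in acute CS than in the other groups, and Angpt1 and Svep1 lie at least 8.92-fold below Foxo1 in every group mean.

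The first comparison asked how the axis differed after acute smoke. Tek and Ptprb were higher in acute CS than in acute RA cells, 2.08-fold and 3.72-fold, while their partner Tie1 and the effector Foxo1 showed log2 fold changes of -0.06 and 0.00. These 2 of 7 tested genes passed an adjusted p under 0.05 in edgeR's quasi-likelihood test, beside 3.47% of all genes tested (2.75% called higher). The median log2 fold change was 1.06 over the 7 genes and 0.04 over all genes. CPM of 4 genes, Angpt1, Tek, Ptprb and Svep1, did not overlap between the groups and was higher in acute CS. With 2 libraries a group this holds for 49.9% of all genes, so the 4 of 7 is near the background.

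**Figure D2:**
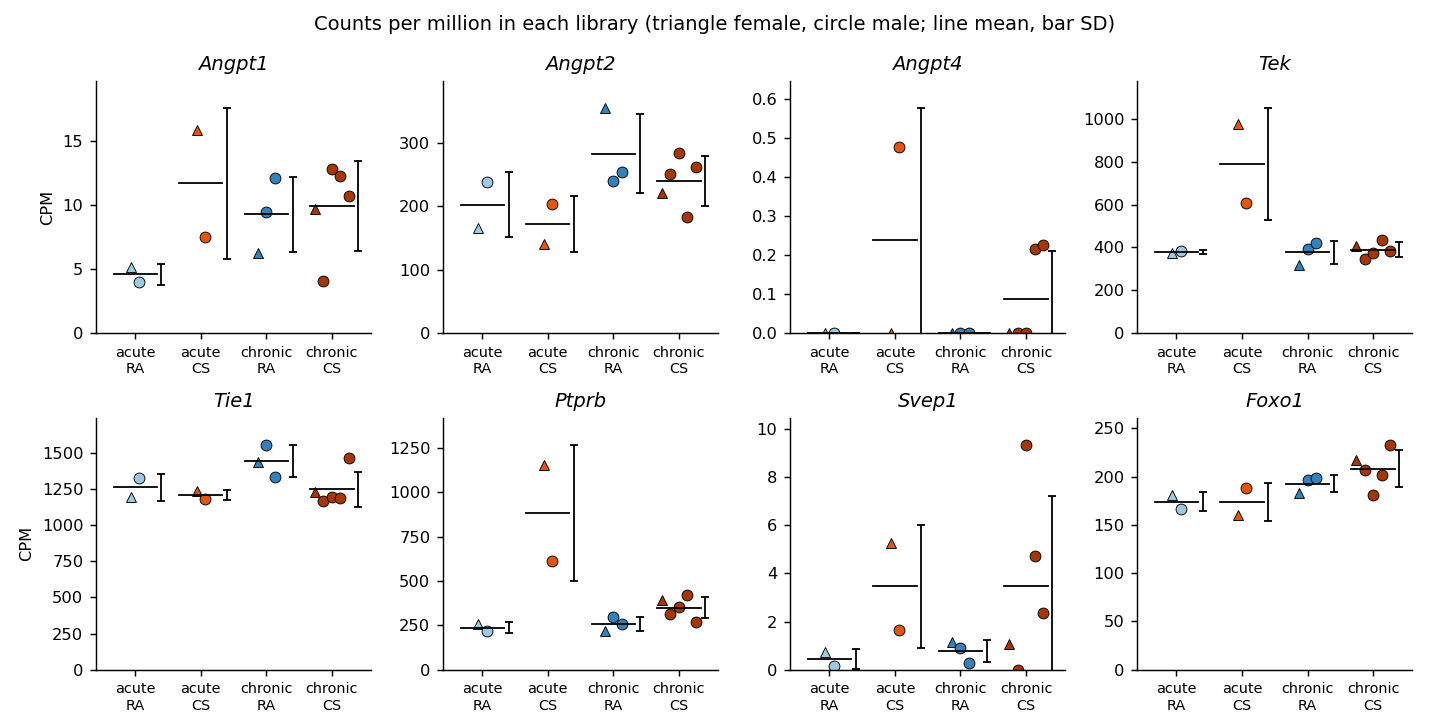
CPM of each of the 8 genes in all 12 libraries, on axes that start at 0, with triangles for female and circles for male libraries, a line at the group mean and a bar for the SD. Tek and Ptprb are highest in the 2 acute CS libraries, while Tie1 lies between 1168 and 1554 CPM in all 12.

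Among the ligands, Angpt1, the main activator of Tie2, measured 15.9 CPM in the F and 7.55 CPM in the M acute CS library, against 5.15 and 4.03 CPM in acute RA. Both CS libraries lay above both RA libraries, and F was the higher of the CS libraries. The log2 fold change was 1.35 (SE 0.55), with a 95% interval from 0.15 to 2.55, but the edgeR adjusted p of 0.249 did not pass. Without acute CS F the value was 0.72 (adjusted p = 0.817). Angpt1 (ENSMUSG00000022309, chr15:42424723-42676977, minus strand) shares 14.2% of its exon bases with the antisense gene Gm17473, which measured at most 0.536 CPM in any library. Angpt1 is also made by mesenchymal cells, platelets and blood progenitors. The summed level of 12 mesenchymal markers was 150 to 218 CPM in acute RA and 712 to 1090 CPM in acute CS, with the higher sum in the M library, whereas Angpt1 was higher in F. Platelet and megakaryocyte markers, 8 genes, summed to 55.3 CPM in F and 20.2 CPM in M acute CS and to 13.5 and 17.4 CPM in acute RA, the same order of the CS libraries as Angpt1 and the opposite order of the RA libraries. In chronic CS the highest platelet sum, 44.9 CPM, was in M1, where Angpt1 was lowest at 4.09 CPM. In chronic RA the platelet sums were 32.7, 48.9 and 101 CPM in F, M1 and M2. Angpt1 rose there in the same order, at 6.27, 9.45 and 12.1 CPM. The part of these cells in the Angpt1 values was not tested.

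Angpt2, stored in endothelial cells and released on activation, is encoded on chr8:18690263-18741562 (ENSMUSG00000031465, minus strand), inside the gene Mcph1 on the other strand but sharing no exon base with it. It measured 141 CPM in F and 204 CPM in M acute CS, and 166 and 239 CPM in F and M acute RA. The groups overlapped, and in both the male pool was the higher one. The log2 fold change of -0.23 (SE 0.27) had an interval from -0.82 to 0.36 and an edgeR adjusted p of 0.798.

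Angpt4, the mouse counterpart of a further Tie2 ligand, lies on chr2:151911210-151945337 (ENSMUSG00000027460, plus strand). It had no count in 9 of the 12 libraries. The exceptions were 22 counts in acute CS M, and 10 counts each in chronic CS M3 and M4, which is 0.477, 0.214 and 0.226 CPM. The libraries with a count came from smoke-exposed males, and chronic CS M1 and M2, also smoke-exposed males, had none. A count of 0 allows up to 3 counts in a library, a limit that covers counting error only.

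The receptor Tek showed the clearer contrast. Its CPM was 975 in F and 607 in M acute CS, against 374 and 385 in F and M acute RA. The other 8 libraries, from the chronic groups, lay between 317 and 436 CPM, so that the 2 acute CS libraries were above all other 10. Its log2 fold change of 1.06 (SE 0.21) had an interval from 0.60 to 1.52 and an edgeR adjusted p of 0.0209. Without acute CS F the log2 fold change was 0.68 and the adjusted p 0.164. Without acute RA F or acute RA M the log2 fold change was 1.04 and 1.05, close to that with all libraries, while the adjusted p was 0.165 and 0.182. Calls over all genes went from 745 to 79 and 3 in these last fits.

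Tek (ENSMUSG00000006386) spans chr4:94739289-94874976 on the plus strand. The bases before its RefSeq start (GRCm38.p6, chr4:94739039-94739288, plus strand) are shown because Tek is the receptor whose level differed, with capitals marking GGAA or its reverse complement TTCC, the core letters read by ETS factors, a family that includes endothelial regulators such as ERG.

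Tek: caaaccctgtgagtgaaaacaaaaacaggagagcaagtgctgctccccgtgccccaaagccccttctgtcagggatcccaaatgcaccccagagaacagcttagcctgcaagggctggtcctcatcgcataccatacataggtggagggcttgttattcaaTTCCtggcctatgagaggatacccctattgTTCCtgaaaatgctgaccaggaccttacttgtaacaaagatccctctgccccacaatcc

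This window of 250 bases held 2 matches, both TTCC, 89 and 59 bases before the start. Of the same windows at 32851 RefSeq promoters, 76.8% held 2 or more and the median was 3. The FOXO core GTAAACA or TGTTTAC was in 3.17% of the windows and not in that of Tek, nor was GATAA or TTATC, read by GATA factors and present in 22.6%. Windows were at hand for 5 of the 8 genes, and that of Tie1 held 7 ETS core matches, a number reached or passed by 3.82% of windows. A match in these letters is a description of the sequence and not of binding.

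Tie1 (ENSMUSG00000033191, chr4:118471191-118490061, minus strand), the partner receptor without a known angiopoietin of its own, measured 1231 CPM in F and 1182 CPM in M acute CS, and 1193 and 1324 CPM in acute RA. The ranges overlapped. The log2 fold change of -0.06 (SE 0.13) had an interval from -0.36 to 0.23, which leaves out a change of the size fitted for Tek (edgeR adjusted p = 0.919). Scaled to Pecam1, Cdh5 and Erg, 3 genes of all endothelial cells, the fit for Tie1 was -0.51 (edgeR adjusted p = 0.103) while the median of all genes moved to -0.40.

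The balance of the receptors was compared within each library, where library scaling plays no part. The ratio of Tie1 to Tek in FPKM was 1.21 and 1.87 in F and M acute CS, and 3.06 and 3.30 in acute RA. In the chronic groups it ran from 2.61 to 4.33, so both acute CS ratios were the lowest of the 12. The mean log2 ratio was lower in acute CS by a difference of -1.08, with an exact permutation p of 0.333 (two-sided), the smallest that 2 against 2 libraries allow. The Benjamini-Hochberg value over 9 ratio tests was 0.6.

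Ptprb (ENSMUSG00000020154, chr10:116275523-116389535, plus strand), which restrains Tie2 and is bound to VE-cadherin at junctions, measured 1156 CPM in F and 611 CPM in M acute CS, against 259 and 217 CPM in F and M acute RA. All 8 chronic libraries lay between 217 and 422 CPM, below both acute CS libraries. On the log2 scale the difference was 1.89 (SE 0.29), with an interval from 1.25 to 2.54 and an edgeR adjusted p of 0.00824. It was 1.36 without acute CS F (adjusted p = 0.0429), and without acute RA F or acute RA M the call was lost (adjusted p = 0.0658 and 0.111) at log2 fold changes of 2.03 and 1.74. The ratio of Ptprb to Tek was 0.419 and 0.356 in F and M acute CS, and 0.245 and 0.199 in acute RA, a log2 difference of 0.81 (exact permutation p = 0.333, adjusted 0.6).

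Fitted on the acute groups alone, with 4 libraries to estimate the spread, the log2 fold changes were 1.05 for Tek and 1.88 for Ptprb, with edgeR adjusted p values of 0.147 and 0.103 and 139 calls over all genes. Scaling to Pecam1, Cdh5 and Erg gave a log2 fold change of 0.58 for Tek (edgeR adjusted p = 0.0937) and 1.40 for Ptprb (adjusted p = 0.0191).

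In acute CS both genes stood higher, as did the blood endothelial markers. Their summed level over 12 genes was 2964 and 3780 CPM in F and M acute RA and 8227 and 7085 CPM in F and M acute CS, with 3454 to 3551 CPM in chronic RA and 2876 to 3917 CPM in chronic CS. Plvap, the most abundant of them, makes up much of these sums, and its log2 fold change in the chronic comparison was -0.36 while 10 of the 12 were positive there. All 12 had a positive log2 fold change in the acute comparison, with a median of 2.39, and the 6 that passed were Kit, Car4, Ednrb, Aplnr, Vwf and Tmem100. Plvap and Emcn, of the same list, had log2 fold changes of 0.14 and 0.32 and did not pass. Ackr1, of venous endothelium, was at 0 in acute RA M and in chronic CS F, M1 and M2. The sum of Pecam1, Cdh5 and Erg was 1031 and 1052 CPM in acute RA and 2068 and 1439 CPM in F and M acute CS. Of these genes, also used for scaling, Pecam1 and Cdh5 had acute log2 fold changes of 0.74 and 0.94 (edgeR adjusted p = 0.0727 and 0.0356). Erg went the other way, at -0.25 (edgeR adjusted p = 0.757). The acute CS F library was the higher of the 2 for Tek, Ptprb and both sums. It was the lower for the lymphatic sum, at 5904 against 9073 CPM. Its epithelial sum was 8461 CPM against 218 CPM in M. In acute RA the blood endothelial sum and Tek were higher in M, and Ptprb in F. In chronic CS the lowest blood endothelial sum, 2876 CPM, was in M3, where Tek and Ptprb were highest at 436 and 422 CPM. The highest sum, 3917 CPM, was in M1, where Tek was lowest at 344 CPM. The part of blood endothelial cells in the Tek and Ptprb values was not tested.

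**Figure D3:**
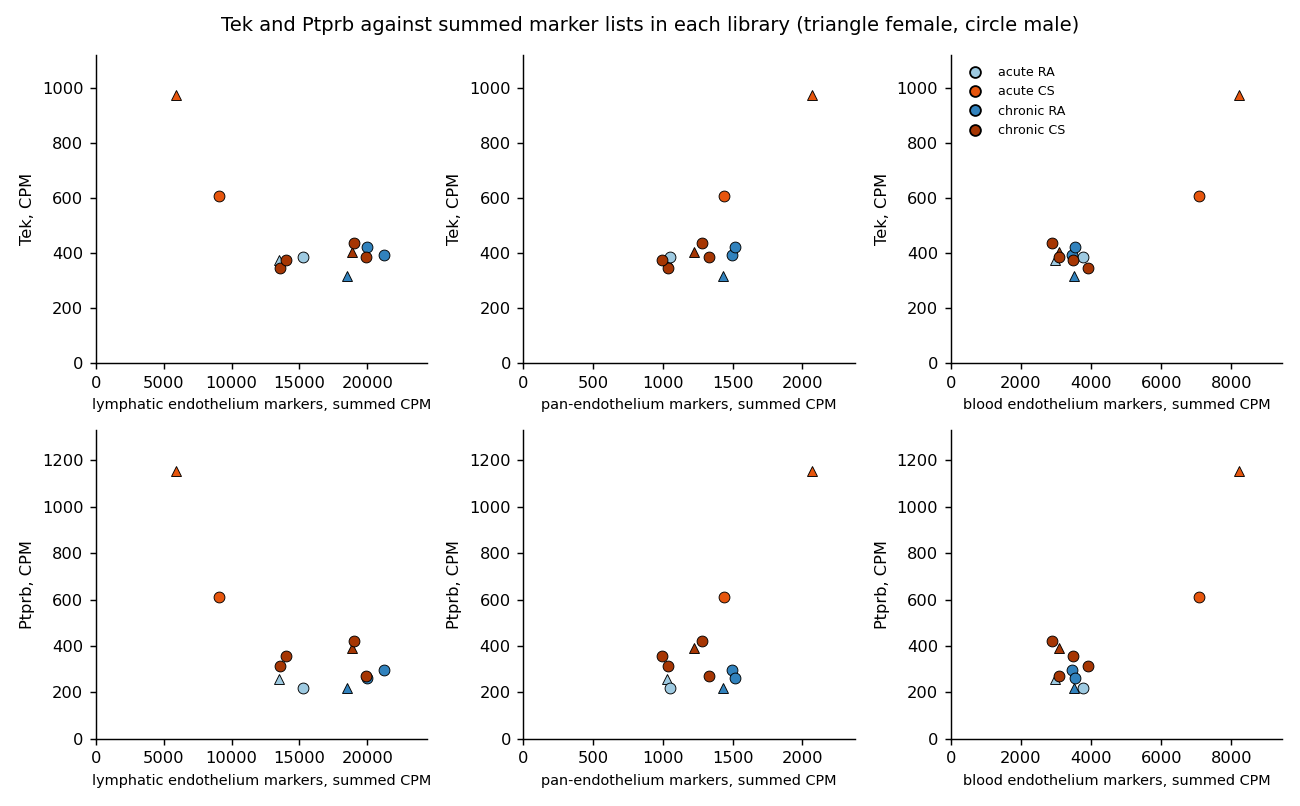
CPM of Tek (top) and Ptprb (bottom) in each library against the summed CPM of 7 lymphatic, 3 pan-endothelial and 12 blood endothelial markers, coloured by group, with triangles for female libraries. The 2 acute CS libraries lie apart from the other 10 at low lymphatic and high blood endothelial sums.

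Svep1 (ENSMUSG00000028369, chr4:58042442-58206859, minus strand), a large matrix protein reported to bind Tie1 and made mostly by mesenchyme, was scarce. It measured 5.28 CPM in F and 1.65 CPM in M acute CS, and 0.727 and 0.151 CPM in acute RA. Both CS libraries lay above both RA libraries, but the log2 fold change of 2.97 had an SE of 1.74 and an interval from -0.86 to 6.80 (edgeR adjusted p = 0.478). Leaving out 1 library moved the value from 1.90 (without acute CS F) to 4.49 (without acute RA F). The lncRNA Gm26889 on the other strand, which covers 13.9% of its exon bases, had no count in any library.

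Foxo1 (ENSMUSG00000044167, chr3:52268336-52353221, plus strand), the factor held back by Tie2 signalling through AKT, measured 160 CPM in F and 188 CPM in M acute CS, and 181 and 167 CPM in acute RA. The groups overlapped, the log2 fold change was 0.00 (SE 0.14), and the interval ran from -0.31 to 0.31 (edgeR adjusted p = 1). The level of its mRNA says nothing of where the protein was in the cell.

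The second comparison asked about chronic smoke. No gene of the axis passed in chronic CS against chronic RA cells, and neither did any of the 21440 genes (0% called by edgeR at an adjusted p under 0.05, with 2341 at an unadjusted p under 0.05). DESeq2 called 524 genes there (2.91% of those it tested), none of the 7 among them. The median log2 fold change was 0.10 over the 7 and 0.01 over all genes. None of the 7 had groups that did not overlap, against 9.41% of all genes.

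Tek in chronic CS was 405 CPM in F, and 344, 373, 436 and 385 CPM in M1 to M4, beside 317, 391 and 421 CPM in F, M1 and M2 of chronic RA. The log2 fold change of 0.05 (SE 0.15) had an interval from -0.29 to 0.38. The interval does not reach the acute estimate of 1.06, which had its own interval from 0.60 to 1.52. The direct test of the difference, given below, did not pass (edgeR adjusted p = 0.123). Angpt1 ran from 4.09 to 12.8 CPM with a median of 10.8 in CS, and measured 6.27, 9.45 and 12.1 CPM in RA, a log2 fold change of 0.10 (SE 0.39).

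Ptprb was the gene with the least overlap. Its CPM was 391 in F and 315, 356, 422 and 270 in M1 to M4 of chronic CS, and 217, 295 and 260 in F, M1 and M2 of chronic RA. The CS library was the higher one in 14 of 15 pairs of a CS and an RA library. Its log2 fold change of 0.45 (SE 0.21) had an interval from -0.02 to 0.91 (edgeR adjusted p = 0.469). In the same comparison the 12 blood endothelial markers had a median log2 fold change of 0.59 (10 of 12 positive), with Gja5 at 1.92 and Vwf at 1.38 (edgeR adjusted p = 0.333 and 0.261). None passed, 6 had an unadjusted p under 0.05, Plvap with a negative value among them, and their part in the Ptprb values was not tested. The ratio of Ptprb to Tek was 0.341, 0.324, 0.337, 0.342 and 0.248 in chronic CS, and 0.242, 0.267 and 0.218 in chronic RA. Only M4 of the CS libraries fell inside the RA range, and the log2 difference of 0.39 had an exact permutation p of 0.0714 (adjusted 0.6, smallest possible p 0.0357).

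Tie1 went the other way. It measured 1225 CPM in F and 1168, 1191, 1186 and 1461 CPM in M1 to M4 of chronic CS, against 1431, 1554 and 1332 CPM in chronic RA. The first 4 CS libraries lay below all RA libraries, and M4 lay above 2 of the 3. The fitted log2 fold change was -0.21 (SE 0.10) with an interval from -0.42 to 0.01 (edgeR adjusted p = 0.467). The sum of Pecam1, Cdh5 and Erg was likewise lower. It was 991 to 1330 CPM in chronic CS and 1428 to 1519 CPM in chronic RA. Pecam1 and Cdh5 had log2 fold changes of -0.35 and -0.37, and Erg one of 0.17. Scaled to these 3 genes, Tie1 had a log2 fold change of -0.0018 (edgeR adjusted p = 1), where the median of all genes moved to 0.22. The ratio of Tie1 to Tek overlapped between the groups, with a log2 difference of -0.26 (exact permutation p = 0.179, adjusted 0.6).

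Angpt2 was 182 to 284 CPM with a median of 250 CPM in chronic CS, and 355, 240 and 254 CPM in chronic RA, a log2 fold change of -0.24 (edgeR adjusted p = 0.686). Foxo1 ran from 181 to 233 CPM in chronic CS and from 182 to 199 CPM in chronic RA, with a log2 fold change of 0.11 (adjusted p = 0.717). Svep1 varied widely among mice. It had no count in M1, and measured 1.05, 9.35, 4.72 and 2.35 CPM in F, M2, M3 and M4 of chronic CS, beside 1.16, 0.893 and 0.268 CPM in chronic RA. The log2 fold change of 2.17 had an SE of 1.30 and an edgeR adjusted p of 0.559, and it was 1.40 without M2. Mesenchymal markers summed to 242 to 391 CPM in chronic CS, and to 126 to 156 CPM in chronic RA. The highest sum was in M2, where Svep1 was highest too, and the next, 350 CPM, in M1, where Svep1 had no count. The part of these cells in the Svep1 values was not tested.

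**Figure D4:**
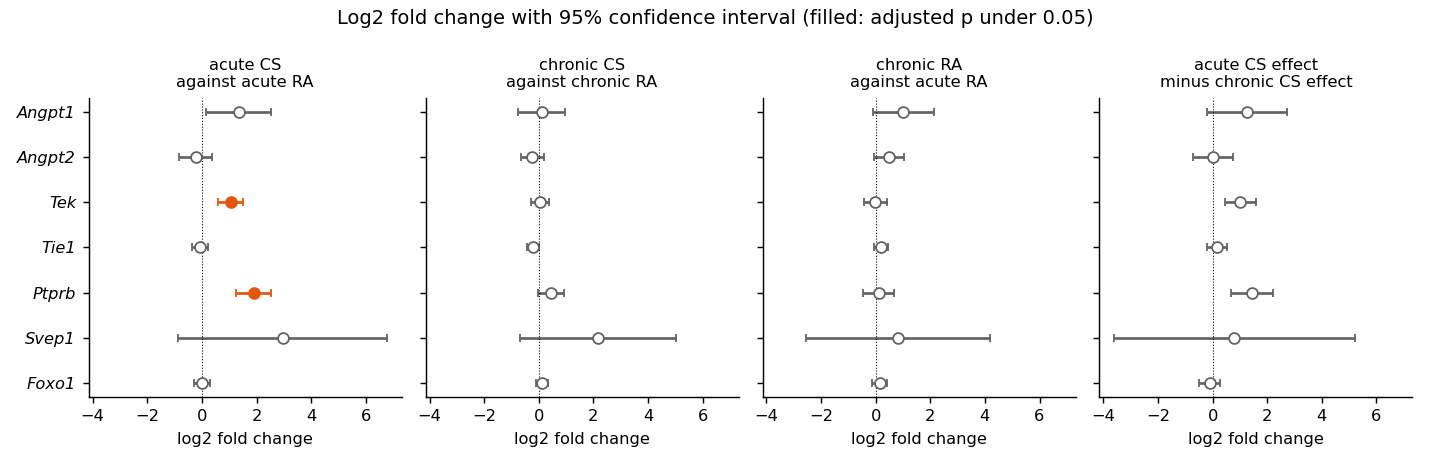
Log2 fold change with its 95% interval for the 7 tested genes in the 3 comparisons and in the difference of the acute and chronic smoke effects, with filled orange points for an edgeR adjusted p under 0.05. Tek at 1.06 and Ptprb at 1.89 are filled in the acute comparison, and no point is filled elsewhere.

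The difference between the acute and chronic smoke effects was tested directly. It was 1.01 (SE 0.26) on the log2 scale for Tek, with an interval from 0.45 to 1.58 and an edgeR adjusted p of 0.123. For Ptprb it was 1.45 (SE 0.35), from 0.67 to 2.22, with an adjusted p of 0.107. No gene of the axis passed, beside 0.452% of all genes. Scaled to Pecam1, Cdh5 and Erg, the difference was 0.32 for Tek and 0.74 for Ptprb (edgeR adjusted p = 0.421 and 0.210). DESeq2 put the unscaled difference at adjusted p values of 0.0116 for Tek and 0.00572 for Ptprb, and called 5.33% of the genes it tested. Over 21 alternative settings, left-out libraries among them, the difference ran from 0.32 to 1.32 for Tek and from 0.74 to 1.84 for Ptprb. With all 12 libraries, the difference between the time points was thus called for these 2 genes by DESeq2 and not by edgeR.

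Chronic RA against acute RA compared the control mice at their 2 ages, and it shares the acute RA libraries with the acute smoke comparison. None of the 7 genes passed (0% of all genes called by edgeR, 1504 at an unadjusted p under 0.05, 253 or 1.55% called by DESeq2). Tek differed least, with a log2 fold change of -0.01 and an interval from -0.43 to 0.41. Angpt1 at 1.01 (SE 0.51, adjusted p = 0.736) and Angpt2 at 0.48 (SE 0.25, adjusted p = 0.739) had the largest values of the genes other than Svep1, whose value of 0.81 had an SE of 1.53. Angpt1, Angpt2, Tie1 and Foxo1 were higher in all 3 chronic RA libraries than in both acute RA libraries. With 3 against 2 libraries, groups did not overlap for 34.7% of all genes. Platelet markers had a median log2 fold change of 2.12 (8 of 8 positive) and lymphatic ones 0.51 (6 of 7). Mesenchymal markers had a median of -0.79 (5 of 12 positive) and epithelial ones -1.38 (0 of 8). EdgeR called none of these markers, and the part of such cells in the values was not tested.

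The ratio of the ligands Angpt2 to Angpt1 was 12.5 and 37.8 in F and M acute CS, and 45.0 and 82.6 in acute RA. Chronic CS libraries ran from 20.8 to 85.2 with a median of 32.0, and chronic RA libraries measured 79.2, 35.6 and 29.4. The acute groups did not overlap, and the chronic ones did. The SD of the log2 ratio was 0.62 in acute RA, 1.13 in acute CS, 0.76 in chronic RA and 0.75 in chronic CS. The log2 differences were -1.49 in the acute and -0.28 in the chronic comparison (exact permutation p = 0.333 and 0.714, adjusted 0.6 and 0.714). The acute value ran from -2.29 to -0.69 with 1 library left out, and without chronic RA F the chronic value was 0.15.

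**Figure D5:**
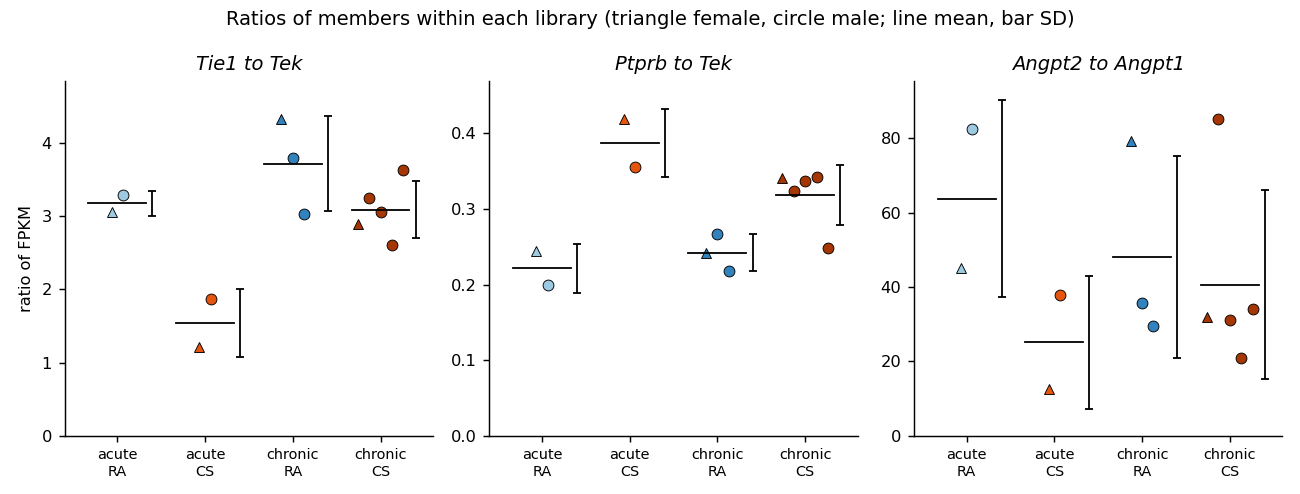
Ratio of FPKM of Tie1 to Tek, Ptprb to Tek and Angpt2 to Angpt1 in each library, on axes from 0, with the group mean as a line and the SD as a bar. The Tie1 to Tek ratio of the acute CS libraries, 1.21 and 1.87, is below that of all other libraries. The Angpt2 to Angpt1 ratio runs from 20.8 to 85.2 in chronic CS.

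Genes that act on or below Tie2 were read from lists written with earlier results of these data known. Of 14 receptor partners and adaptors, 1 rose in acute CS, where 2.75% of all genes were called higher. Dok2, an adaptor that docks on active Tie2 and is also common in leukocytes, went from 1.20 to 2.65 CPM in acute RA to 15.5 to 25.8 CPM in acute CS (log2 fold change 3.42, edgeR adjusted p = 0.0467). The 8 leukocyte markers summed to 238 to 251 CPM in acute RA and 1385 to 2054 CPM in acute CS, and their part in the Dok2 values was not tested. The median of the list was -0.10 against 0.04 for all genes. In the chronic comparison none passed, and the 2 smallest p values belonged to Itga5, the fibronectin receptor chain that associates with Tie2, at -0.37 (edgeR adjusted p = 0.256), and to Dok2 at 1.86 (adjusted p = 0.342).

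Of 11 genes of the PI3K and AKT arm none passed in either smoke comparison. The smallest p values in the acute one belonged to the catalytic subunits Pik3cb, with a log2 fold change of 1.52 (edgeR adjusted p = 0.0718), and Pik3ca, with -0.85 (adjusted p = 0.285). In the chronic one they belonged to Rictor, of the mTORC2 complex, at 0.50 (edgeR adjusted p = 0.325), and Akt1 at -0.58 (adjusted p = 0.556). The medians were 0.26 in the acute and 0.03 in the chronic comparison.

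Of 17 genes of the FOXO family and its targets 16 were tested, Foxo6 being too low, and 1 rose in acute CS, beside the same 2.75% of all genes. Pik3ip1, an inhibitor of PI3K, went from 40.9 to 42.1 CPM in acute RA to 85.0 to 92.8 CPM in acute CS (log2 fold change 1.10, edgeR adjusted p = 0.0214). Irs2, an insulin receptor substrate, and Cited2 had log2 fold changes of 2.06 and 1.06 that did not pass (adjusted p = 0.0891 and 0.0755). The list had a positive log2 fold change in 15 of 16 genes and a median of 0.88, where all genes had 0.04. In chronic RA against acute RA, a comparison without smoke that shares the acute RA libraries, 14 of 16 were positive with a median of 0.37, none passed in edgeR and 5 had an unadjusted p under 0.05. In the acute smoke comparison the median was 3.78 for leukocyte, 2.39 for blood endothelial and 2.34 for mesenchymal markers, and their part in the values of this list was not tested. In the chronic comparison none passed, 9 of 16 were positive and the median was 0.11. The smallest p values there belonged to Cdkn1b, a cell cycle inhibitor, at 0.59 (edgeR adjusted p = 0.347), and Cited2 at 0.61 (adjusted p = 0.371). Foxo1 itself, as given above, had a log2 fold change of 0.00 beside these acute values.

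Across the 12 libraries the log2 CPM of Tek and Ptprb ran together, at 0.93 by Pearson's r and 0.66 by Spearman's rho. Over the 10 libraries other than acute CS the r was 0.51, so much of it rests on those 2. Angpt1 and Svep1 had an r of 0.76, and 0.74 over those 10. Tek and Tie1 had an r of -0.27. Libraries share depth and cell makeup, so these values describe the set and carry no test.

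The genes most like each member were taken as the 3 highest Pearson r over the 12 libraries among 12423 genes. For Tek they were Ednrb, an endothelin receptor of lung capillaries that also stood in the blood endothelial list, with 0.958, and Mcc and Gdpd1 with 0.957 each. For Ptprb they were Hey1, a Notch target of endothelium, with 0.978, and Sh3bp1 and Heg1, a junction receptor, with 0.969 each. For Tie1 they were Chmp7, Ltbp1 and Pomgnt1, with 0.880 to 0.865. Angpt2 was nearest to B4galt2, Aars2 and Zfp513 with 0.896 to 0.874, and Angpt1 to Mlycd, Rtn4 and Ptpn21 with 0.899 to 0.871. Svep1 was nearest to Rab3a, Mb21d2 and Jarid2 with 0.965 to 0.907, and Foxo1 to Zfp93, Msrb3 and Jade1 with 0.897 to 0.873. With Spearman rho in place of r, 6 of the 21 names were shared, and 3 were with deviations from the group means.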

How the data were processed

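Raw read counts per Ensembl gene, 1 column for each of 12 libraries, were the deposited values. Per the study's methods, the authors made full-length SMART-Seq v4 libraries, checked reads with FastQC 0.11.9, trimmed and filtered them, ran STAR against GRCm38 and took reads per gene from that program. The strand setting and annotation release are not given in the sources used here. The kit does not mark strand, so reads of a gene and its antisense partner cannot be told apart. GENCODE M21 gave symbols, positions and exon lengths for 52489 of 52636 identifiers, and 147 found no match.

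From these counts, edgeR 4.0.16 (R 4.3.3) kept genes with filterByExpr, scaled with TMM and fitted quasi-likelihood models on all 12 libraries in 4 groups, with Benjamini-Hochberg adjustment over 21440 genes and a call at an adjusted p under 0.05. CPM used TMM-scaled totals, FPKM divided CPM by the union of exons, and log2 CPM used a prior count of 2. Confidence intervals (95%) used the model's total degrees of freedom. Exact permutation tests, two-sided, compared the ratios in Python 3.11.15. The script was tested on simulated data. No libraries agreed within sampling noise. Chronic libraries came from single mice and acute ones from pools, and the fit shares 1 estimate of the spread over both, so acute p-values rest partly on the spread between single mice.

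Groups came from the sample titles. Genes named beyond the 8 were chosen by a fixed rule: the 3 with the highest Pearson r to each tested gene among those whose log2 CPM averaged 1 or more, and from 3 pathway lists those called or, where none was, the 2 with the smallest p. Irs2, Cited2 and the markers named singly were picked after their values were seen. The genes and lists were chosen with earlier results of these data known. The labels do not say whether equal replicate names mark pairs beyond sex, and the main fit left the libraries unpaired. Deviations of same-named libraries correlated at -0.0419 to 0.0693. These values cannot settle pairing, since with 2 libraries a group the F and M deviations mirror each other. Alternatives were DESeq2 1.42.0, no TMM, scaling to Pecam1, Cdh5 and Erg, no filter, separate fits, sex or a replicate block as covariate, robust estimation, subsets of chronic CS and each library left out.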

Additional observations from a re-analysis of the deposited data

Results flagged for a closer look

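In chronic CS, the group with 5 libraries, M4 stood apart from the other 4 for Tie1, at 1461 CPM against 1168 to 1225 CPM, a gap of 0.807 of the group's whole range. The same library stood apart for the log2 ratio of Ptprb to Tek, at a ratio of 0.248 against 0.324 to 0.342, a gap of 0.827 of the range. These were 2 of 11 sets of values tested in that group, and chance flags about 1 in 20. Without M4 the log2 fold change of Tie1 in the chronic comparison was -0.27 (edgeR adjusted p = 0.270), and the log2 difference of the Ptprb to Tek ratio was 0.48.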

How the results depend on the processing

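The number of genes of the axis called in acute CS against acute RA was 2. It was 1 when scaled to Pecam1, Cdh5 and Erg (Ptprb), and 0 when the acute groups were fitted alone. A block for equal replicate names gave edgeR adjusted p values of 0.121 for Tek and 0.0526 for Ptprb, and the number called was 0. It was 0 to 2 with 1 library left out: 1 without acute CS F, 2 without acute CS M and 0 without either acute RA library. For the difference between the acute and chronic effects it was 2 with DESeq2, against 0, and 0 to 2 with 1 library left out. All genes called in the acute comparison numbered 745, with 1926 by DESeq2, 1168 scaled to the 3 endothelial genes, 139 in the separate fit, 73 with the block and 3 to 858 over left-out libraries. The same 7 genes gave 0 calls in the chronic and control comparisons under every alternative run. Tek and Ptprb were above 0 in the acute comparison under all 12 alternatives, at 0.58 to 1.36 and 1.36 to 2.28.

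Signs turned only for uncalled log2 values near 0 or with wide errors, and no cause was tested. In the acute comparison Foxo1, 0.00 at first, was -0.032 by library size without TMM, -0.43 scaled to the endothelial genes, -0.025 without the filter, -0.012 in the separate fit, -0.00068 with sex as a covariate and -0.0024 with the replicate block. In the chronic comparison Angpt1 was -0.15 and Tek -0.0028 with the replicate block, which also took Svep1 from 2.17 to 0.078, and Angpt1 was -0.050 with chronic CS F, M1 and M2 only. Between the controls, scaling to the endothelial genes gave -0.15 for Tie1, -0.22 for Ptprb and -0.19 for Foxo1, with the median of all genes at -0.34, and the sex covariate gave 0.0019 for Tek. In the difference of effects Angpt2 was -0.025 with DESeq2, -0.11 by library size, -0.65 scaled, -0.025 without the filter, -0.083 with the block and -0.12 with chronic CS F, M1 and M2 only, and scaling gave -0.51 for Tie1 and -0.013 for Svep1, with the median at -0.61.

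Leaving out 1 library at a time moved the acute values of Angpt2 over -0.52 to 0.019 and Foxo1 over -0.12 to 0.11, and the chronic values of Angpt1 over -0.11 to 0.35 and Tek over -0.056 to 0.14. Between controls Tek ran from -0.11 to 0.090 and Ptprb from -0.024 to 0.25. The difference of effects ran from -0.28 to 0.25 for Angpt2, -0.27 to 2.32 for Svep1 and -0.23 to 0.0024 for Foxo1. The log2 ratio of Angpt2 to Angpt1 ran from -0.59 to 0.15 in the chronic comparison and that of Ptprb to Tek from -0.019 to 0.28 between controls. Taking the longest transcript as length changed no order within a group. Counts were few for Angpt4, at most 22 in a library, and for Svep1, at 0 to 269, and the part of depth was not tested.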
